A study of Mus musculus with 20 samples.

Results

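The cytosolic ribosome is built from ribosomal RNA and a fixed set of ribosomal proteins, named Rpl for the large subunit and Rps for the small subunit. Expression of these genes was studied in the mouse thoracic aorta 4 h after whole-body irradiation. Genes were taken by symbol (Rpl, Rps or Rplp followed by a number, or Rpsa, without entries marked as pseudogenes) and kept when their mean count over the 20 mice was at least 50. Of 21078 genes in the count table, 83 carried such a symbol and 79 passed the count minimum, 47 of the large and 32 of the small subunit. The 4 genes left out were Rpl10l, Rpl39l and Rpl3l, with mean counts of 0.05, 0.70 and 0.80, and Rps4y2, with a mean count of 39.2. In the 79 genes, 76 encode standard (core) ribosomal proteins and 3 encode paralogs of them, Rps27l, Rpl22l1 and Rpl7l1.

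All mice were adult wildtype C57BL/6 males aged 10 to 12 weeks. A group of 10 mice received protons and another 10 received gamma rays, with 1 mouse at each dose of 0, 5, 10, 25, 50, 75, 100, 125, 150 and 200 cGy. The mice at 0 cGy were sham controls, restrained in the irradiator without exposure. As each dose held 1 mouse per radiation type, no dose had a replicate, and trends were judged over the 10 doses of a radiation type.

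In most tissues the genes of the cytosolic ribosome are expressed together, as most of the proteins are needed in equal numbers. Their mRNAs are known as TOP mRNAs, which begin with a C followed by a run of pyrimidines (C or T in the gene) and whose translation depends on mTOR signalling. Several ribosomal proteins that are not assembled into ribosomes bind MDM2, the ubiquitin ligase that degrades p53, and Rps27l is a known p53 target gene.

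The following stretches, from 10 bases before to 20 bases from the transcription start listed by RefSeq (build GRCm38.p6), are shown because they place Rps27l, the gene with the dose trend described here, beside its paralog Rps27, the other paralogs, Rplp2, whose level departed from the rest, and 3 clear TOP starts. Capitals mark the unbroken run of C and T from the start itself, and the sequences run 5′ to 3′ along the gene's strand.
Rps27 (chr3:90213629-90213658, minus strand): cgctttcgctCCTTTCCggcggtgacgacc
Rps27l (chr9:66946076-66946105, plus strand): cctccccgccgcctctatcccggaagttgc
Rpl22l1 (chr3:28805498-28805527, plus strand): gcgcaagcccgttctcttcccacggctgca
Rpl7l1 (chr17:46782637-46782666, minus strand): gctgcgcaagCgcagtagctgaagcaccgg
Rplp2 (chr7:141447641-141447670, plus strand): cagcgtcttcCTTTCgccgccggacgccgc
Rpl28 (chr7:4792955-4792984, plus strand): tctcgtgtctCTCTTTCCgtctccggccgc
Rpl35a (chr16:33056472-33056501, plus strand): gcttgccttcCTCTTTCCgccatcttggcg
Rpl15 (chr14:18270967-18270996, minus strand): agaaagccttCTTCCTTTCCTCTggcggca

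A start was listed for 58 of the 79 genes. A C at the start followed by at least 4 bases that were each C or T, on the gene's own strand, was found at a listed start of 13 of the 58 genes (22.4%), against 813 of 27025 genes in the whole RefSeq table (3.01%). A run of 8 or more C or T within the 30 bases shown was present in 24 of the 58 (41.4%) and in 3517 of all 27025 (13%). None of the 3 paralogs had the C and pyrimidine run at the start itself, and only 13 of 55 core genes had it (23.6%). Rps27 began with 7 pyrimidines, while Rps27l and Rpl22l1 began with G at the starts shown, as did the core gene Rpl18 at its listed start. In Rpl22l1 and Rpl18 a run of C and T followed directly after that G. A listed start that is off by a base would change such matches, and the precision of the starts was not tested. Rps27l had 2 listed starts, of which 1 is shown. The p53 half-site, searched on both strands, matched in the 300 bases around a listed start of 5 of the 58 genes (8.62%), Rps27l and Rps27 among them, and of 2582 of all genes (9.55%).

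The libraries held between 6051657 and 6058006 counts on annotated genes, as the authors had resampled them to a common depth. Smooth muscle markers were high in all 20 mice (summed level of 10 genes, 28905 to 61050 CPM, counts scaled by normalised library size), the lowest in the proton mouse at 75 cGy. That mouse also had the highest summed levels of 8 heart muscle markers (3667 CPM, against 19.5 to 76.6 in the other 19 mice) and of 11 brown fat markers (2756, against 338 to 1149). Over genes averaging 50 counts or more, the correlation between a gene's deviation in a mouse and its GC content was between -0.41 and -0.35 in the 4 mice at 150 and 200 cGy and between -0.02 and 0.29 in the other 16. The part of these differences in the results was not tested except where a value without the mouse, or a fit with the covariate, is given. In whole tissue, fewer cells of a type and less RNA per cell cannot be told apart.

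Rps27l increased with dose in both radiation types and was the 1 gene of the 79 that passed the test in either. Its counts after protons were 289 to 559 with a median of 440, and after gamma rays 309 to 572 with a median of 449.5. In the 8 mice at 0 to 25 cGy the counts lay between 289 and 363, and in the 12 mice at 50 to 200 cGy between 407 and 572. The lower and the higher doses therefore did not overlap, in either radiation type, and the proton and gamma mice overlapped throughout. The split at 25 cGy was made after the values were seen and was not tested. Normalised to library size, the level was 48.4 to 59.4 CPM at the lower and 69.4 to 96.1 at the higher doses.

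The fitted slope of Rps27l, as log2 change per 100 cGy, was 0.47 after protons (SE 0.082, adjusted p = 0.00836, edgeR quasi-likelihood test with Benjamini-Hochberg adjustment over 13124 genes). After gamma rays it was 0.47 (SE 0.082, adjusted p = 0.00546, the same test). These slopes correspond to a 1.38-fold (95% interval 1.23 to 1.56) and a 1.39-fold (1.23 to 1.56) increase per 100 cGy. They are averages over 0 to 200 cGy, as the fit takes a constant slope. Counts at 125, 150 and 200 cGy were 559, 552 and 527 after protons and 529, 492 and 572 after gamma rays. At 0, 5, 10 and 25 cGy the gamma counts were 325, 309, 324 and 316, and the proton counts 324, 289, 321 and 363. Whether the rise levels off was not tested. The difference between the slopes was -0.006, with an interval from -0.25 to 0.24. Across the alternatives of the fit, the slope of Rps27l remained between 0.39 and 0.66 after protons and between 0.35 and 0.71 after gamma rays. The adjusted p-values of these fits were up to 0.0431 and 0.0513. The highest slopes, 0.66 and 0.71, came from the fit to 0 to 125 cGy alone. The lowest, 0.39 and 0.35, came from the edgeR fit corrected for GC content and transcript length. That fit also gave the gamma adjusted p of 0.0513. By rank correlation with dose (Spearman's rho 0.90 after protons and 0.83 after gamma rays), an exact two-sided permutation test gave p = 0.000807 and 0.00471, and after adjustment over all genes 0.244 and 0.126, past the threshold of 0.1 in neither.

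**Figure D1:**
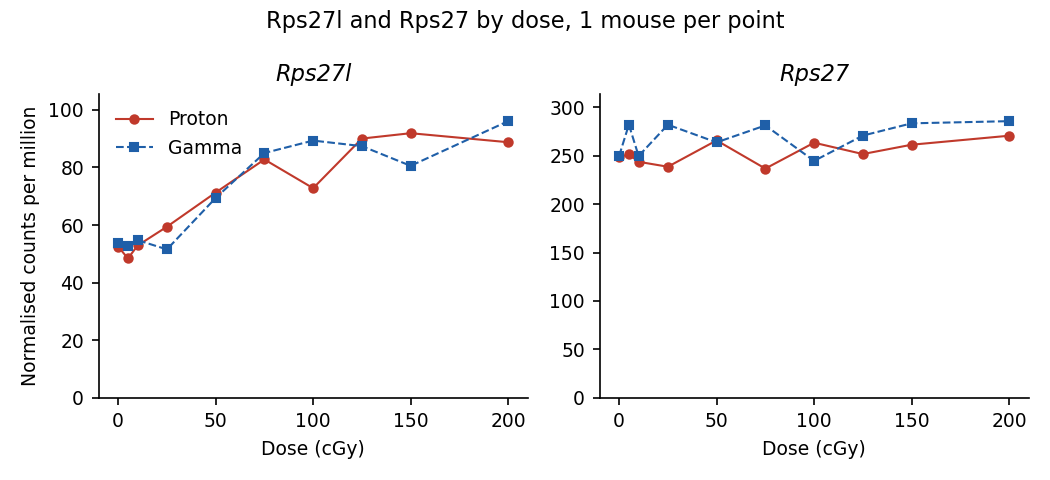
Level of Rps27l and of its paralog Rps27 (normalised CPM, vertical axis) against dose (cGy, horizontal axis), with 1 mouse per point, protons as red circles and gamma rays as blue squares. Rps27l lay at 48.4 to 59.4 at 0 to 25 cGy and at 69.4 to 96.1 from 50 cGy, while Rps27 had fitted slopes of 0.06 and 0.05 that did not pass the test.

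Rps27, the paralog whose protein is part of the standard small subunit, had counts of 1458 to 1637 after protons (median 1548.5) and of 1478 to 1731 after gamma rays (median 1647.5). Its counts at low and high doses overlapped in both radiation types. Its slopes were 0.06 (SE 0.044, adjusted p = 0.639, edgeR) after protons and 0.05 (SE 0.044, adjusted p = 0.646) after gamma rays. The ratio of Rps27l to Rps27 counts was 0.183 to 0.249 in the 8 mice up to 25 cGy and 0.263 to 0.365 in the 12 mice above. Per kilobase of the longest annotated transcript, Rps27 was at 757 CPM ± 46.4 (SD, n = 20) and Rps27l at 124 ± 29.2.

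The other 2 paralogs did not pass the test. Rpl22l1, the paralog of Rpl22, had counts of 225 to 316 after protons (median 271.5) and of 228 to 343 after gamma rays (median 270). Proton and gamma mice overlapped, and neither set was ordered by dose. Its slopes were 0.06 (SE 0.083) and 0.09 (SE 0.082). Rpl7l1, related to Rpl7 and known for a part in ribosome assembly, had counts of 375 to 430 after protons (median 403.5) and of 332 to 411 after gamma rays (median 400.5). Its slopes were -0.04 (SE 0.046) and -0.03 (SE 0.045). Its counts stayed within a narrow range apart from the gamma mouse at 125 cGy, which had the lowest of all, 332.

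Against the whole table, 1 of 79 ribosomal protein genes rose with proton dose where 1.6% of the 13124 tested genes did, and 1 of 79 rose with gamma dose where 5.44% did. None of the 79 fell in either series in edgeR, DESeq2 or the exact rank test, where 0.16% (proton) and 2.21% (gamma) of all genes fell in edgeR. At an unadjusted p under 0.05, also 0 of the 79 fell in edgeR, against 3.52% and 6.92% of all genes. The ribosomal protein genes were measured more precisely than most genes, with a median SE of the slope of 0.047 in each radiation type against 0.107 over all tested genes. For 77 of the 79 genes the 95% interval of the proton slope lay within 0.25 of 0 on the log2 scale per 100 cGy, and for 76 of 79 that of the gamma slope. Intervals this narrow depend on the small SE, so these counts do not set the genes apart from others.

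**Figure D2:**
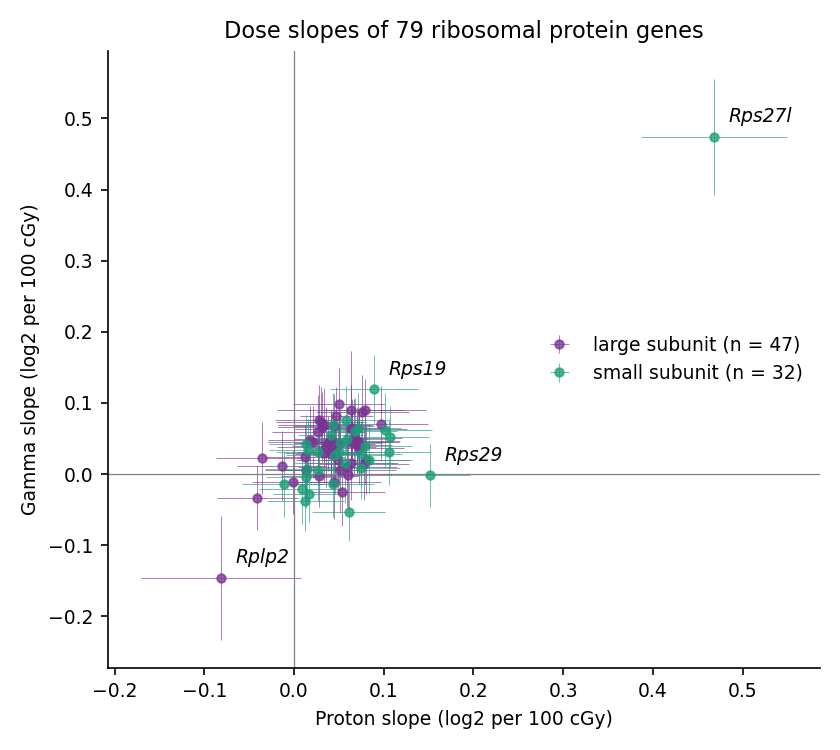
Slopes of the 79 genes after protons (horizontal axis) and after gamma rays (vertical axis), in log2 change per 100 cGy. Points are genes of the large (purple) or small (green) subunit and bars are 1 SE in each direction. Rps27l stands at 0.47 on both axes, and the other 78 genes lie between -0.08 and 0.15 after protons and between -0.15 and 0.12 after gamma rays.

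Most slopes were small and above 0. After protons 73 of 79 genes had a slope above 0 with a median of 0.05, against a median of 0.002 and 50.6% above 0 over all genes. After gamma rays 64 of 79 were above 0 with a median of 0.04, against 0.01 and 53.5% over all genes. These medians rested in part on the 150 and 200 cGy mice. In a fit to the doses of 0 to 125 cGy alone the proton median was 0.02, below that of all genes (0.03), with 49 of 79 genes above 0, and the gamma median was -0.004 with 36 above 0. Without the proton mouse at 200 cGy the proton median was 0.03, and without the gamma mouse at 0 cGy the gamma median was 0.02 with 48 genes above 0. With a correction for GC content and transcript length the median was 0.04 after protons and -0.007 after gamma rays.

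Rps29, a small subunit protein with a zinc-binding domain, had the next smallest p-value after protons. Its proton counts ran from 1321 to 1768 with a median of 1556, and its gamma counts from 1416 to 1613 with a median of 1536. The proton mice at 0, 5, 10 and 25 cGy had the 4 lowest proton counts, 1321 to 1435, which was not the case after gamma rays. The proton slope was 0.15 (SE 0.045, adjusted p = 0.118, edgeR) and the gamma slope -0.002 (SE 0.044, adjusted p = 0.991). Its difference of 0.15 (interval 0.02 to 0.28) had an unadjusted p of 0.0235 and an adjusted p of 1.0 over all genes. Rps29 passed the proton threshold in DESeq2 (adjusted p = 0.0377), with the brown fat score as a covariate (0.0957) and without the gamma mouse at 100 cGy (0.0987).

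Rps3 and Rps7, small subunit proteins that can bind MDM2, followed after protons. Rps3 counts were 2496 to 2957 after protons (median 2638) and 2622 to 2970 after gamma rays (median 2758.5). Rps7 counts were 1532 to 1847 (median 1657.5) and 1570 to 1883 (median 1678.5). Both genes had their proton maximum at 150 or 200 cGy, and the proton and gamma ranges overlapped. The proton slopes were 0.11 for Rps3 (adjusted p = 0.284, edgeR) and 0.11 for Rps7 (adjusted p = 0.320).

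After gamma rays the next gene was Rps19, a small subunit protein needed for its maturation and mutated in Diamond-Blackfan anaemia. Its counts were 1280 to 1664 after gamma rays (median 1489.5) and 1302 to 1642 after protons (median 1464.5). In both series the lowest count was in the sham mouse. The gamma slope was 0.12 (SE 0.048, adjusted p = 0.174, edgeR) and the proton slope 0.09 (SE 0.049, adjusted p = 0.460). Rpl3, a protein near the peptidyl transferase centre, had a gamma slope of 0.09 and Rpl22 one of 0.08, and neither passed the test.

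**Figure D3:**
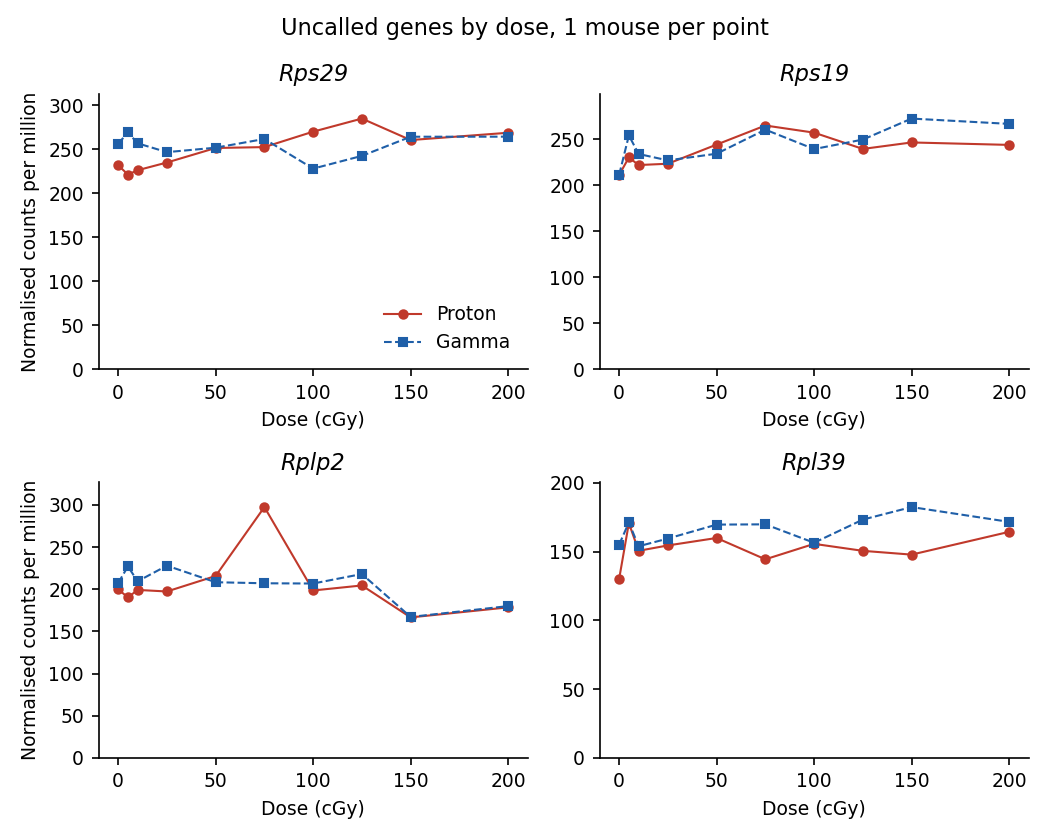
Level (normalised CPM, vertical axes, each from 0) against dose (cGy) of Rps29, Rps19, Rplp2 and Rpl39, 1 mouse per point, protons as red circles and gamma rays as blue squares. None passed the edgeR test at an adjusted p of 0.1 with all 20 mice; Rplp2 shows the proton mouse at 75 cGy at 298 CPM and the 4 mice at 150 and 200 cGy at 167 to 180.

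Of the 8 proteins listed for binding MDM2 (Rpl5, Rpl11, Rpl23, Rpl26, Rps3, Rps7, Rps27 and Rps27l), 1 rose in each radiation type, Rps27l, where 1.6% and 5.44% of all genes rose, and none fell. All 8 had slopes above 0 in both, with medians of 0.07 after protons and 0.06 after gamma rays, as did 92.4% and 81.0% of the 79 ribosomal protein genes after protons and gamma rays. Rpl5 and Rpl11, which bind MDM2 together with 5S ribosomal RNA, had slopes of 0.03 and 0.03 after protons and of 0.07 and 0.07 after gamma rays. Rpl5 counts were 2073 to 2511 after protons and 2198 to 2670 after gamma rays, and Rpl11 counts were 1252 to 1652 and 1272 to 1557. Counts of the proton and gamma mice overlapped for both genes.

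Rplp2, an acidic protein of the stalk of the large subunit, had the lowest slope in both radiation types and did not pass the test. Its counts were 1001 to 1844 after protons (median 1207.5) and 1021 to 1398 after gamma rays (median 1259.5). The 4 mice at 150 and 200 cGy had the 4 lowest counts of all 20, 1001 to 1072, against 1137 to 1844 in the other 16. The highest count, 1844, was in the proton mouse at 75 cGy, where the next proton count was 1329. The slopes were -0.08 (SE 0.090, adjusted p = 0.796, edgeR) and -0.15 (SE 0.087, adjusted p = 0.416). Without the proton mouse at 75 cGy the gamma slope of -0.16 passed the threshold (adjusted p = 0.0801), and over 0 to 125 cGy the slopes were 0.16 and -0.04. The other stalk proteins did not share this order. Rplp1 counts were 2468 to 2861 after protons and 2396 to 2874 after gamma rays, with 2612 to 2800 in the 4 mice at 150 and 200 cGy, and Rplp0 counts were 3330 to 3704 and 3371 to 3854. The ratio of Rplp2 to Rplp1 counts was between 0.365 and 0.410 in those 4 mice and between 0.424 and 0.737 in the others. The neighbouring gene on the same strand, Pnpla2, a triglyceride lipase high in fat, had 8737 counts in the proton mouse at 75 cGy and 907 to 3460 in the other 19, and the table's interval for it lay 3612 bases from that of Rplp2.

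The ribosomal protein genes rose and fell together from mouse to mouse. Over the 20 mice the median correlation between the log2 levels of 2 of these genes was 0.54 over 3081 pairs, where the median over all genes averaging 50 counts or more was -0.004. More than 0.5 was reached by 54.7% of the pairs and by 9.12% of pairs of all genes. All points share the same libraries and scaling, so these values are a description. The median was 0.55 between large subunit genes, 0.54 between small subunit genes and 0.54 between a large and a small one. It was 0.43 within the proton mice and 0.63 within the gamma mice, and 0.57 without the proton mouse at 75 cGy.

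This joint movement was small. The coefficient of variation over the 20 mice had a median of 6.13% in the 79 genes and of 13.8% in all genes averaging 50 counts or more, while counting alone would give the ribosomal protein genes a median of 2.44%. The comparison was not matched for count, and counting alone adds more variation to genes with fewer counts. Of the 79 genes, 78 varied less than the median gene. The exception was Rps27l with 23.5%. Rplp2 followed with 13.5% (8.77% without the proton mouse at 75 cGy) and Rpl22l1 with 11.7%, and no other exceeded 8.71%.

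**Figure D4:**
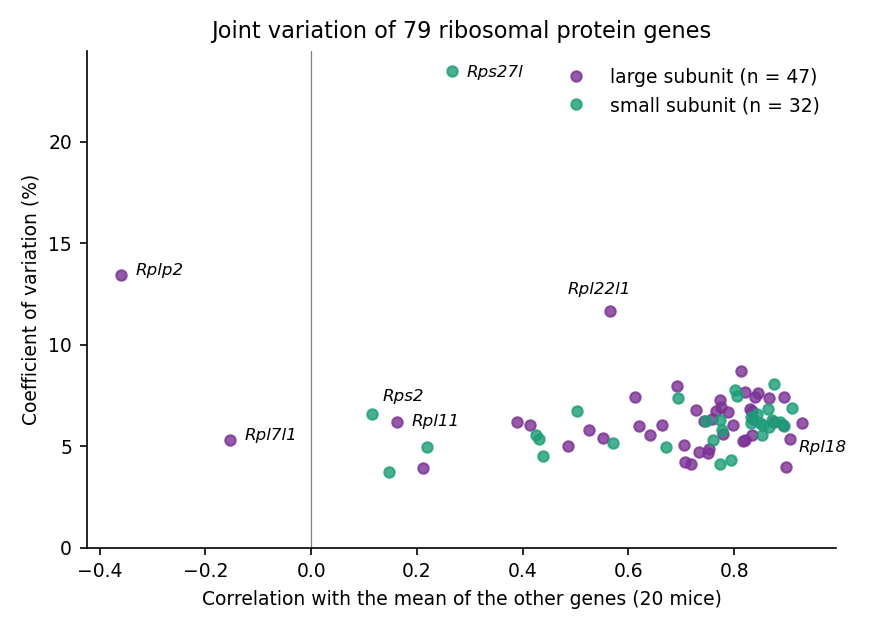
Coefficient of variation over 20 mice (%, vertical axis) against the correlation of a gene with the mean of the other 78 (horizontal axis), large subunit in purple and small subunit in green. Most genes lie at correlations above 0.5 and below 9%; Rplp2 (-0.36) and Rpl7l1 (-0.15) lie below 0, and Rps27l stands apart at 23.5%.

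The correlation of a gene with the mean of the others had a median of 0.77 and was above 0.5 for 65 of 79 genes. It was highest for Rpl18 (0.93), Rps15a (0.91), Rpl19 (0.91), Rpl9 (0.90) and Rps27a (0.89), which is made as a fusion with ubiquitin. Among the lowest were Rplp2 (-0.36), Rpl7l1 (-0.15), Rps2 (0.12) and Rpl11 (0.16). Without the proton mouse at 75 cGy these genes were at -0.23, -0.13, 0.26 and 0.41. Rps27l was at 0.27. The coefficient of variation of Rpl7l1, 5.29%, was close to the 5.02% from counting alone, which limits any correlation it could show. Rpl18 had counts of 1405 to 1614 after protons (median 1508.5) and 1476 to 1813 after gamma rays (median 1545), with the lowest in the proton sham mouse and the highest in the gamma mouse at 150 cGy. Rps2 had counts of 2365 to 2981 after protons (median 2457.5) and 2398 to 2896 after gamma rays (median 2593.5), and its highest values were in the proton mice at 75 and 125 cGy and the gamma mouse at 100 cGy.

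The genes took a near-constant share of the library. It was 2.26 to 2.48% of counts in the proton mice (median 2.35%) and 2.33 to 2.63% in the gamma mice (median 2.45%). The lowest share was in the proton sham mouse and the highest in the gamma mouse at 150 cGy, and the ranges overlapped. Averaged over the 76 core genes, the deviation from each gene's own mean ran from -0.11 in the proton sham mouse to 0.11 in the gamma mouse at 150 cGy on the log2 scale. In the first, 1 of the 76 genes lay above its own mean, and in the second 74 did. Spread among the genes within a mouse was largest in the proton mouse at 75 cGy (SD 0.14 log2, against 0.04 to 0.09 in the other 19), with Rpl10, Rpl22l1 and Rpl7 lowest at -0.28, -0.28 and -0.27 and Rplp2 highest at 0.54.

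**Figure D5:**
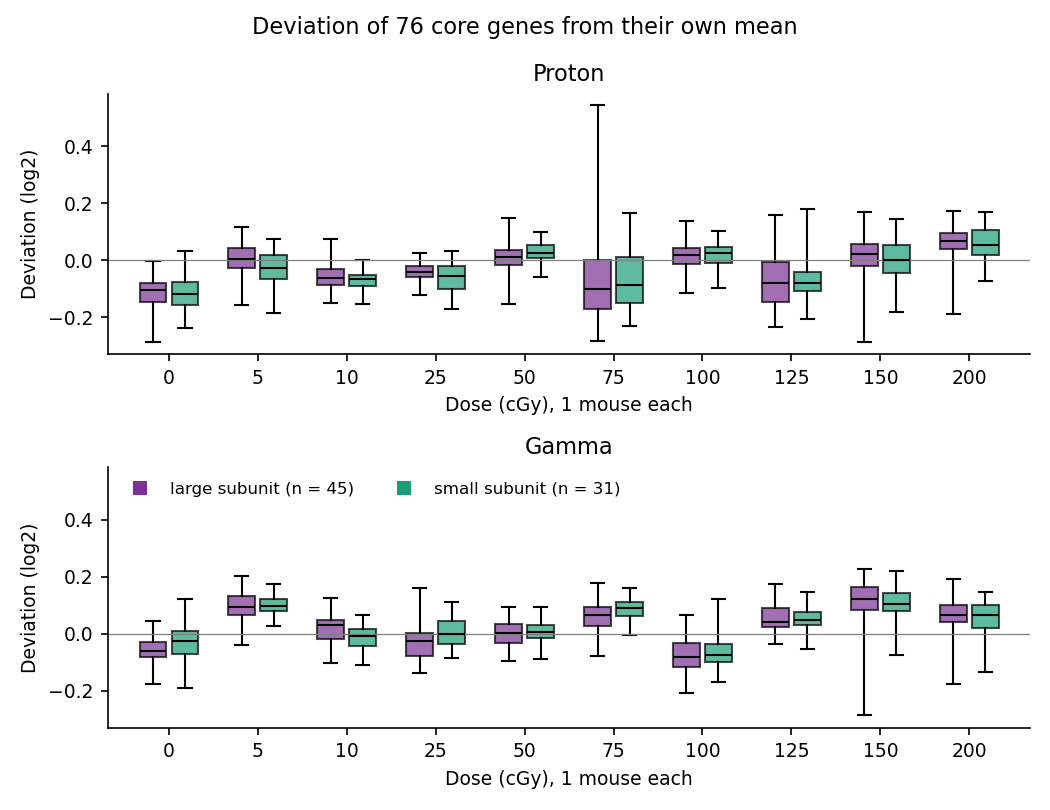
Deviation of the 76 core genes from their own mean over 20 mice (log2, vertical axis) in each mouse, ordered by dose (cGy, horizontal axis), for protons (top) and gamma rays (bottom), with large subunit genes in purple and small subunit genes in green. Boxes hold the middle 50% of genes, the line is the median and whiskers reach the lowest and highest gene; both subunits move together, and the proton mouse at 75 cGy has the widest spread.

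Large and small subunit genes moved together. Summed over its genes, the large subunit had 1.41 to 1.47 times the counts of the small subunit, which on the log2 scale was 0.49 to 0.56 with a median of 0.53 after protons and 0.52 after gamma rays. The SD of this log2 ratio over the 20 mice was 0.018, while that of the log2 share of counts was 0.054. The median slope of large and small subunit genes was 0.05 and 0.05 after protons, and 0.04 and 0.03 after gamma rays. The lowest ratio of each radiation type was in the proton mouse at 75 cGy and the gamma mouse at 25 cGy. After protons the log2 ratio was 0.537 to 0.559 in the 4 mice up to 25 cGy and 0.494 to 0.534 in the 6 mice above, without overlap. After gamma rays the same doses gave 0.493 to 0.551 and 0.497 to 0.534, which overlapped. This split was made after the values were seen and was not tested. The proton gap was narrow, between 0.537 in the sham mouse and 0.534 in the mouse at 150 cGy. The small subunit sums of these 2 mice, 55940 and 59818, include 324 and 552 counts of Rps27l. Their large subunit sums were 81149 and 86617. The ratio without Rps27l was not computed, so the gap does not show a shift among the other genes. The part of Rps27l in the gap was not tested.

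Between radiation types no gene passed a test. At matched dose, with the 10 doses as blocks, 0 of the 79 genes were higher and 0 lower after protons, where 0% of the 13124 genes passed in either direction. At an unadjusted p under 0.05, 7 of the 79 were lower after protons, against 4.1% of all genes, and none was higher, against 3.76% of all genes. By direction alone, 75 of the 79 genes were lower after protons, with a median difference of -0.05 log2, against 0.01 and 45.1% of all genes lower. The 95% interval lay within 0.25 of 0 for all 79, which again depends on the small SE of these genes. With the correction for GC content and transcript length the median was -0.10 and all 79 were lower. The share of counts was lower in the proton mouse at 8 of 10 doses, and higher at 50 and 100 cGy. These doses include 0 cGy, where neither mouse was irradiated. In that sham pair 60 of the 76 core genes were already lower in the proton mouse, with a mean difference of -0.067 log2. Without the proton sham mouse the median difference of the matched-dose fit was -0.05. DESeq2 also called 0 genes in each direction.

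Rpl39, a small protein at the exit tunnel of the large subunit, had the smallest p-value of this comparison. Its counts were 802 to 1020 after protons (median 939) and 911 to 1114 after gamma rays (median 1000), and the ranges overlapped. The difference was -0.12 (SE 0.042, interval -0.21 to -0.03, adjusted p = 0.476, edgeR). Rps6, the small subunit protein phosphorylated downstream of mTOR, had counts of 1390 to 1635 after protons (median 1477.5) and 1491 to 1695 after gamma rays (median 1608.5). Its difference was -0.11 (adjusted p = 0.553). Rps9, Rps21 and Rps15a came next, with -0.10, -0.12 and -0.09.

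Markers of other cells also differed in direction between the radiation types. All 5 blood, all 7 leukocyte and all 8 heart muscle markers tested were higher after protons by direction, as were 10 of 11 brown fat, 8 of 10 endothelium, 6 of 8 fibroblast and 3 of 4 skeletal muscle markers. Smooth muscle markers, those of the main cell type of the aorta, were lower in 8 of 10 (median -0.07 log2), as were 5 of 8 white fat and 3 of 5 nerve markers. None of these genes passed the test. The summed heart muscle markers were 3667 CPM in the proton mouse at 75 cGy and 19.5 to 76.6 in all other mice. For brown fat the sum was 2756 CPM in that mouse and 338 to 1149 in all others. The part of that mouse in these directions was not tested. Summed blood markers were 28.7 to 1524 CPM after protons and 21.9 to 2220 after gamma rays, and the leukocyte sums were 105 to 376 and 62.2 to 393. All 5 blood, 8 heart muscle and 7 tested leukocyte markers were detected. The part of these cells in the lower ribosomal protein levels after protons was not tested, and with the brown fat score as a covariate the median difference was -0.04 with 67 of 79 lower. In the slope tests, 1 gene of the 10 marker lists passed, Myocd of the smooth muscle list, which rose with gamma dose (1.05). It was 1 of 10 smooth muscle markers (10%), where 5.44% of all genes rose with gamma dose. Most of that list went the other way, with 7 of 10 gamma slopes below 0 and a median of -0.05.

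The slopes of the 79 genes were also compared between radiation types. No gene passed the test of the difference, where 0% of all genes did, and 1 of 79, Rps29, had an unadjusted p under 0.05, against 1.94% of all genes. The differences ran from -0.06 to 0.15. Rps28 followed Rps29, with a slope of 0.06 after protons and of -0.05 after gamma rays. Its counts were 597 to 721 after protons (median 678.5) and 630 to 728 after gamma rays (median 668).

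Genes around the ribosome were followed for comparison. Their counts stand beside all 13124 tested genes, of which 1.6% rose and 0.16% fell after protons, and 5.44% rose and 2.21% fell after gamma rays. Of 73 genes of ribosome biogenesis tested, 1 (1.37%) rose after protons (Bop1, a factor of large subunit maturation, 0.23) and none fell. After gamma rays 2 (2.74%) rose, Npm1 (nucleophosmin, 0.15) and Polr1c (a subunit shared by RNA polymerases I and III, 0.17), and 1 fell, Tcof1 (treacle, a cofactor of ribosomal RNA transcription, -0.30). Of 24 regulators of translation and mTOR signalling, 2 (8.33%) rose after protons, Ddit4l (1.26) and Sesn2 (0.80), both inhibitors of mTOR complex 1 signalling. After gamma rays 3 (12.5%) rose, Ddit4l (1.05), Sesn2 (0.88) and Tsc1 (0.33), of a complex that restrains mTOR, and 1 fell, Eif4ebp2, a translation repressor (-0.29). Of 20 other genes known for TOP mRNAs, such as elongation factors, 1 (5%) rose after gamma rays, Eif4b (0.18), and none passed after protons. Eef2, the elongation factor of translocation, had slopes of 0.08 and 0.11 that did not pass.

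The 75 mitochondrial ribosomal protein genes tested gave no call in either direction of any comparison in edgeR. Their median slopes were -0.008 and -0.02. At matched dose their median was 0.07, with 65 of 75 higher after protons, whereas 75 of 79 cytosolic genes were lower, and neither direction was tested over a list. Pseudogene entries of the cytosolic genes made up 122 rows and 0.190% of the counts of their parents. Of the 16 averaging 5 counts or more, 2 fell after protons and none passed after gamma rays. Rpl34-ps1 had a proton slope of -0.72 on 8 to 27 counts and Rpl28-ps1 one of -1.01 on 2 to 13. Rpl34 itself had counts of 1065 to 1263 after protons (median 1204.5) and 1120 to 1335 after gamma rays (median 1233.5), with a proton slope of 0.08. As reads can be shared between a gene and a near-identical pseudogene, the pseudogene values are uncertain.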

How the data were processed

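Poly(A)-selected RNA of 20 mouse aortas was sequenced as stranded paired reads, aligned by the authors to mm9 with STAR 2.5.2a and resampled to a common depth with PORT. The deposited sense-strand values are whole-number counts per gene, summing to 6051657 to 6058006 per mouse. Intervals and tests cover these 20 mice, 1 per dose. Genes averaging 5 counts or more (13124) were fitted with edgeR 4.0.16 (quasi-likelihood, robust, TMM scaling) with an intercept and a dose slope for each radiation type. Proton and gamma mice of equal dose were compared with dose as a block. Calls used an adjusted p of 0.1. Correlations used log2 of CPM plus 1. The genes and lists were chosen with earlier results of these data known. Named genes were those with the smallest p in each direction and comparison (5 each), the 3 highest and lowest counts, the 5 highest and lowest correlations, and a list of members; an item withheld from the text is not reported here. Lists were biogenesis factors, regulators, other TOP genes, MDM2 binders, paralogs, mitochondrial ribosomal proteins, pseudogenes and 10 cell type marker lists. Alternatives were DESeq2 1.42.0, library size without TMM, other count minimums, GC and length offsets, a brown fat covariate, pseudogene counts added, other dose scales, 0 to 125 cGy alone, an exact rank test and each mouse left out. Scripts were tested on simulated data. Sequences came from RefSeq (GRCm38.p6) and files used mm9.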

Additional observations from a re-analysis of the deposited data

Results flagged for a closer look

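In 90 groups of 10 mice (the share of counts, the log2 ratio of large to small subunit, the mean deviation and the counts of 42 named genes, in each radiation type), the gap of the highest or lowest mouse to the next exceeded Dixon's 95% critical share of the group's range 6 times, where chance gives about 1 in 20. The 6 of 90 were close to that share. Groups of a radiation type hold the same mice, so they are not independent. Of the 6, 4 were the proton mouse at 75 cGy, the mouse with the highest heart muscle and brown fat markers. It had the highest counts of Rplp2 (1844, next 1329), Rpl11 (1652, next 1431) and Rpsa (3420, next 3117), and the lowest of Rpl10 (3774, next 4278). The other 2 were in gamma mice, Rpl18 at 150 cGy (1813, next 1629) and Rpl7l1 at 125 cGy (332, next 381).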

How the results depend on the processing

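Rising genes after protons were 2, Rps27l and Rps29, with the brown fat covariate, in DESeq2 and without the gamma mouse at 100 cGy (1 to 2 over the 20 mice left out), and 0 by the exact rank test, which also gave 0 after gamma rays (1 with each mouse left out). Falling genes after gamma rays were 0 to 1 with mice left out, the 1 being Rplp2 without the proton mouse at 75 cGy. The other counts of 0 stayed at 0 in the alternatives run, and Rps27l was called in all 30 other fits. The cause of these changes was not tested. The median slope after protons (0.049) was 0.016 over 0 to 125 cGy and 0.029 to 0.057 with mice left out. After gamma rays (0.037) it was -0.0038 over 0 to 125 cGy, -0.0069 with GC and length offsets and 0.018 to 0.043 with mice left out, where it was 0.023 without the mouse at 25 or at 150 cGy. The median correlation between genes (0.54) was 0.46 without TMM, 0.78 on GC and length residuals and 0.50 to 0.57 with mice left out. That with the mean of the others (0.77) was 0.69, 0.89 and 0.74 to 0.78. With the median of genes in place of the sum, the share was 2.18% (sum 2.39%) and the log2 ratio of large to small -0.12 (sum 0.52), since a median does not count the number of genes. These last 2 moved by under 1 SD over mice when any mouse was left out. Of 3738 slopes and differences of named genes recomputed, 138 changed sign and 4 changed call. Mice of equal dose were paired at matched dose. Without that replicate block, with dose as a line (chosen after seeing the data), also 0 genes were higher and 0 lower after protons, and 75 of 79 were lower by direction. Depth limits the paralogs most, at mean counts of 271 to 434.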
